A study of Homo sapiens with 9 samples.

Results

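RNA sequencing compared MOLT4 cells in samples titled MI-389, collected after 6 h, against MOLT4 cells kept for 6 h with the vehicle, 0.1% dimethyl sulfoxide (DMSO). MOLT4 is an established human cell line from a T-cell acute lymphoblastic leukemia (T-ALL). The comparison was taken by sample title and used 6 of the 9 samples, 3 per group; the other 3, titled sunitinib, entered the model and serve as another treated group. Of 23621 gene rows, 12301 had a mean of at least 1 FPKM (fragments scaled by transcript length and library size) over the 9 samples and were tested. The description concerns genes outside a list of 140 best-known stress genes (integrated stress response, early response, heat shock and unfolded protein response genes), of which 121 passed the same filter.

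The labels of the treated samples conflict. For the samples titled MI-389 the source field gives sunitinib, 1 µM, and for those titled sunitinib it gives MI-389, 0.1 µM. The barcodes listed in the library protocol and the column names of the expression table match the titles, and the text here goes by them. If the source field is right, each statement on the MI-389-titled samples belongs to sunitinib at 1 µM. The labels do not tell whether a group had separate cultures. A p-value therefore reflects the variation among these samples alone, and that variation may be technical. All samples come from 1 cell line, a limit on what the groups can model.

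Sunitinib inhibits several receptor tyrosine kinases. MI-389 is a phthalimide conjugate; the phthalimide part of such molecules is a ligand of cereblon, which presents proteins to a cullin-RING ubiquitin ligase. The series title names GSPT1, the GTPase that works with ETF1 when ribosomes stop at a stop codon, as an off-target of such conjugates. T-ALL cells resemble thymocytes arrested during maturation: TAL1 with LMO2, GATA3 and RUNX1 forms a transcription complex that holds many T-ALL lines in their state, NOTCH1 drives their growth, and surface genes such as CD1A, CD8B and CCR9 mark the cortical stage. RNA levels at 6 h can move through transcription or through decay of the RNA, which these data do not separate.

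Depth cannot be read from FPKM. The steps of the lowest values were 1.36 times as high in the DMSO samples as in the MI-389-titled samples (most common ratio over 83 genes). If a step is 1 fragment, which was not tested, 1 fragment was worth more in the DMSO samples and their low values are coarser. Across genes, samples of these groups correlated with others of their own group at 0.9946 or more and MI-389-titled samples with samples of other groups at 0.975 or less. All 10 T-lineage marker genes of the table were at 1 FPKM or more, with a summed level of 4429 to 5512 FPKM in DMSO and 4121 to 4363 FPKM in the MI-389-titled samples. Among B cell markers, 3 of 7 were measured (CD79A, CD79B and BLK), with MS4A1 below the filter, and the summed level was 56.0 to 64.6 against 58.1 to 62.2 FPKM. Of 8 myeloid markers only CD68, and of 9 epithelial and fibroblast markers only KRT8, reached 1 FPKM. In a bulk sample, fewer cells with a transcript and less of it per cell cannot be told apart.

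Of the 12301 tested genes, 6979 passed an adjusted p of 0.05 (limma, Benjamini-Hochberg), which is 56.7%: 3502 were higher in the MI-389-titled samples (28.5%) and 3477 lower (28.3%). The 3 treated and 3 DMSO samples did not overlap for 7408 genes, or 60.2% (30.5% higher and 29.7% lower). A call is therefore common here, and each group of genes below is read against these shares. Most changes were small: the median log2 difference was −0.002 with an interquartile range from −0.27 to 0.27, and 294 genes (2.39%) rose and 129 (1.05%) fell by at least 2-fold. The split between directions depended on the scaling, since 3222 genes were called higher and 4956 lower when each sample was centred on its own median. That median was 4.74 ± 0.056 (SD, n = 3) on the log2 scale in the MI-389-titled samples and 4.66 ± 0.089 in DMSO, a difference that an exact two-sided permutation test gave p = 0.3, where 0.1 is the smallest possible.

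Direction depended on abundance. Genes with a mean of 10 to 100 FPKM over the 6 samples were called higher in 36.2% and lower in 27.2% of 6733 cases. At 100 to 1000 FPKM the shares were 13.3% and 52.2% of 1772 genes, and at 1000 FPKM or more they were 1.81% and 76.5% of 166 genes, where the median log2 difference was −0.32. With median centring and with rescaling to spike-in RNA these 166 genes stayed lower, with medians of −0.40 and −0.31 and 92.2% and 72.9% called lower. In the deposited values the spike-in RNAs were already level, their median difference from DMSO being −0.038 to 0.026 log2 in each sample. Rescaling to them could therefore change little. Quantile normalization gave them a median of −0.01, and cyclic loess one of 0.07 with 53.01% of them called higher. The last 2 scalings make the samples alike in distribution or in their trend with level. They take out a shift that follows abundance, so they cannot show whether the fall held. Counts for gene lists below are therefore given with those under another scaling where it moved them by over 1.5 times. Lists of abundant genes are also to be read against the shares of their level.

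**Figure D1:**
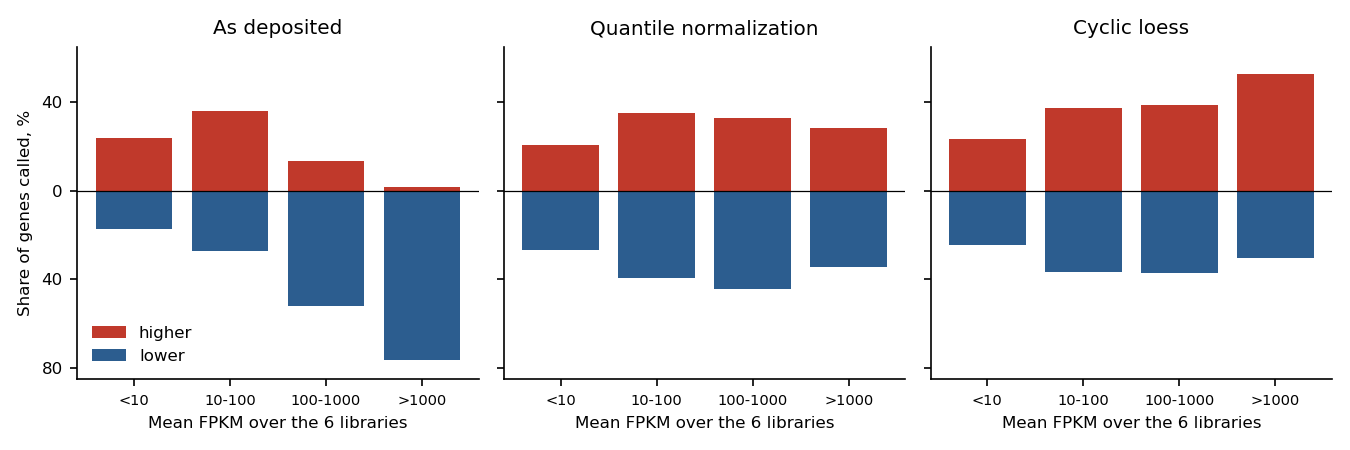
Share of genes called higher (up, red) or lower (down, blue) in the MI-389-titled samples against DMSO, by mean FPKM over the 6 samples, with the deposited values and with 2 other scalings. With deposited values 76.5% of the most abundant genes are called lower, while cyclic loess calls 53.01% of them higher.

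The largest rises outside the stress list included the arrestin-domain genes. TXNIP encodes a protein that binds thioredoxin and lowers glucose uptake by drawing glucose transporters from the surface, and ARRDC4 and ARRDC3 encode related alpha-arrestins that couple membrane proteins to ubiquitin ligases. TXNIP and ARRDC4 are known targets of MondoA, a factor that pairs with MLX on carbohydrate response elements, which consist of a pair of E-box-like motifs 5 bases apart. The 250 bases before the annotated start of each gene are shown because these 3 genes are related and rose together. They are on the gene's strand in RefSeq GRCh38.p14, a later build than the hg19 of the expression table: TXNIP at chr1:145996580-145996829 (minus strand), ARRDC4 at chr15:97960453-97960702 (plus strand) and ARRDC3 at chr5:91383318-91383567 (minus strand). Capitals mark a pair of CACGNG motifs 5 bases apart, with the bases between them, or a single CACGTG.
TXNIP: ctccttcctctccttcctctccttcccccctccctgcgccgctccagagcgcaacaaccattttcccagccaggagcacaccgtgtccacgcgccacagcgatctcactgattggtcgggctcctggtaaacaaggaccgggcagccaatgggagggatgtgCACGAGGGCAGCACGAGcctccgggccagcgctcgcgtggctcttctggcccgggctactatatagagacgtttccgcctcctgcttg
ARRDC4: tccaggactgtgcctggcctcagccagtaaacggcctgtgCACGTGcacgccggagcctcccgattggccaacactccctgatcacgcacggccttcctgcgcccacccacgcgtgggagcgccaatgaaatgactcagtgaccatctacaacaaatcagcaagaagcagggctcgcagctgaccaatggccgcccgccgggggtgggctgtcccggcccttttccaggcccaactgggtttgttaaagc
ARRDC3: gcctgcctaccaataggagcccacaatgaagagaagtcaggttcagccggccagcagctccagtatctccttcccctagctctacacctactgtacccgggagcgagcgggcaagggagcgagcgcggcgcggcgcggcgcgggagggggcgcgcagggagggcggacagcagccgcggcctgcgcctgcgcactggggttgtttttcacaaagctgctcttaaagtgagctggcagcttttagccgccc
The TXNIP stretch holds 1 pair, which begins 88 bases before the start; the ARRDC4 stretch holds a single CACGTG that begins 210 bases before the start, and the ARRDC3 stretch holds neither. Such a pair, searched on both strands, lies in 0.059% of the 27305 promoters in the RefSeq table and in 0.11% of those of tested genes (8727 of 12301 matched by symbol), while CACGTG alone lies in 9.42% of the latter. A match is a description of letters, not of binding.

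TXNIP stood at 53.6, 57.99 and 61.2 FPKM in the DMSO samples and 489.5, 456 and 507 FPKM in the MI-389-titled samples. The groups were far apart, and the rise was 8.41-fold, with a log2 difference of 3.05 ± 0.063 (SE) on the log2(FPKM + 1) scale and an adjusted p of 3.07e-09 in limma. ARRDC4 stood at 7.01, 5.70 and 6.84 FPKM in the DMSO samples and 80.2, 75.4 and 87.2 FPKM in the MI-389-titled samples, a 12.4-fold rise with the largest log2 difference among the called genes of at least 5 FPKM outside the stress list, 3.45 ± 0.089 (SE, adjusted p = 7.41e-09, limma). ARRDC3 rose 5.34-fold, from 18.1 ± 0.8 to 96.6 ± 0.77 FPKM (means ± SD, n = 3, as for all values written in this way). The sunitinib-titled samples had means of 61.6, 5.57 and 20.9 FPKM for the 3 genes. In the wider list of arrestin-domain genes and restraints of mTORC1 signalling, 8 of 19 tested members were higher and 2 lower (4 lower with median centring or quantile normalization), with a median log2 difference of 0.09, so the large rises belong to a few members. TSC22D3, a leucine zipper protein known as a glucocorticoid-induced gene in lymphocytes, rose from 1.24, 0.988 and 1.78 FPKM in the 3 DMSO samples to 19.1, 16.6 and 18.6 FPKM, and SESN3, a sestrin that restrains mTORC1, from 4.76 ± 0.64 to 7.01 ± 0.24 FPKM.

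MXD1 and MXD3 encode partners of MAX that repress transcription at sites MYC also uses, and they moved in opposite directions. MXD1 stood at 3.10, 3.06 and 3.68 FPKM in the DMSO samples and 23.1, 21.6 and 21.9 FPKM in the MI-389-titled samples, a 6.77-fold rise. MXD3 stood at 53.8, 58.5 and 65.4 FPKM in the DMSO samples and 20.4, 17.8 and 20.8 FPKM in the MI-389-titled samples, a 3.01-fold fall. The groups did not overlap for either gene, and the adjusted p was 5.25e-08 and 7.87e-07 (limma).

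Among the other largest rises, several encode surface or membrane proteins. TREML2, a receptor of the TREM family found on lymphocytes and myeloid cells, stood at 3.63, 3.83 and 4.79 FPKM in the DMSO samples and 50.3, 48.6 and 51.9 FPKM in the MI-389-titled samples, a 12.3-fold rise. The neighbouring pseudogene TREML5P was also among the 30 largest rises, but 1 DMSO sample stood near the floor (4.08, 3.80 and 0.153 FPKM) and reads of related copies could be shared. ULBP1, a stress ligand seen by the NKG2D receptor of natural killer cells, rose 5.76-fold, from 6.88 ± 0.69 to 39.7 ± 1.9 FPKM. EFNA1 and EFNA3 are ephrin-A ligands of Eph receptors and went opposite ways: EFNA1 rose from 0.507, 0.407 and 0.810 to 6.97, 8.93 and 7.26 FPKM, while EFNA3 fell from 7.49, 7.03 and 9.18 to 1.55, 1.75 and 0.851 FPKM. FLRT3, a leucine-rich repeat membrane protein, rose from 1.02, 0.891 and 0.601 FPKM to 11.97, 11.6 and 12.6 FPKM. GLIPR1 and SLC43A1, the latter a transporter of large neutral amino acids, rose 5.22-fold and 6.08-fold.

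SLC30A1 is the zinc exporter of the plasma membrane, and with the metallothioneins it is a known target of the zinc sensor MTF1. It stood at 2.08, 1.70 and 2.99 FPKM in the DMSO samples and 25.7, 23.8 and 23.8 FPKM in the MI-389-titled samples, a 10.8-fold rise. Of 6 tested metallothioneins, which bind zinc and copper, 3 were higher and 1 lower. MT1F rose from 3.55 ± 1.1 to 9.45 ± 1.5 FPKM, MT1G from 83.4 ± 19.8 to 124 ± 12.9 FPKM, and MT1H from 5.14 ± 2.2 to 11.4 ± 0.8 FPKM; the call of MT1H was lost with no filter on low values (adjusted p = 0.059, limma). These genes are near-identical copies, so reads may be split between them. The lower call, MT2A, which went from 410.1 ± 11.5 to 363 ± 6.6 FPKM, was lost without DMSO replicate 2 (0 lower), without MI-389-titled replicate 2 (0 lower), and under quantile normalization and cyclic loess.

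Other large rises were in ASS1, which makes argininosuccinate in arginine synthesis, at 7.48, 8.33 and 7.66 FPKM in the DMSO samples and 60.00, 53.8 and 60.9 FPKM in the MI-389-titled samples. H1F0, the linker histone H1.0 of resting and differentiated cells, stood at 41.8, 42.6 and 46.1 FPKM in the DMSO samples and 223, 221 and 231 FPKM in the MI-389-titled samples, a 5.17-fold rise to one of the highest levels among the 30 rises. Cytoskeletal and matrix genes were also present: ZYX, a focal adhesion protein, rose 7.70-fold, FHL2, a LIM-domain cofactor, 4.33-fold, and TIMP3, an inhibitor of metalloproteinases, 6.20-fold. RAB30, a small GTPase of the Golgi, rose 8.06-fold and NABP1, a single-strand DNA-binding protein, 4.20-fold. MKX, a homeobox factor, rose from the floor region, 0.196, 0.185 and 0.256 FPKM, to 5.98, 5.54 and 6.38 FPKM. The 30 largest rises ranged from 4.17-fold to 43.7-fold, the latter for DUSP8, whose DMSO level was close to the floor of about 0.1 FPKM. DUSP8, MKX, EFNA1 and TNF had means under 1 FPKM in DMSO and in the sunitinib-titled samples. These 4 genes and FLJ35024, another of the 30, passed the filter only through the MI-389-titled samples. All 30 were also called higher than in the sunitinib-titled samples (36.0% of all tested genes), and 7 of the 30 were called higher in the sunitinib-titled samples against DMSO (2.37% of all). These comparisons share groups of samples with the main comparison.

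**Figure D2:**
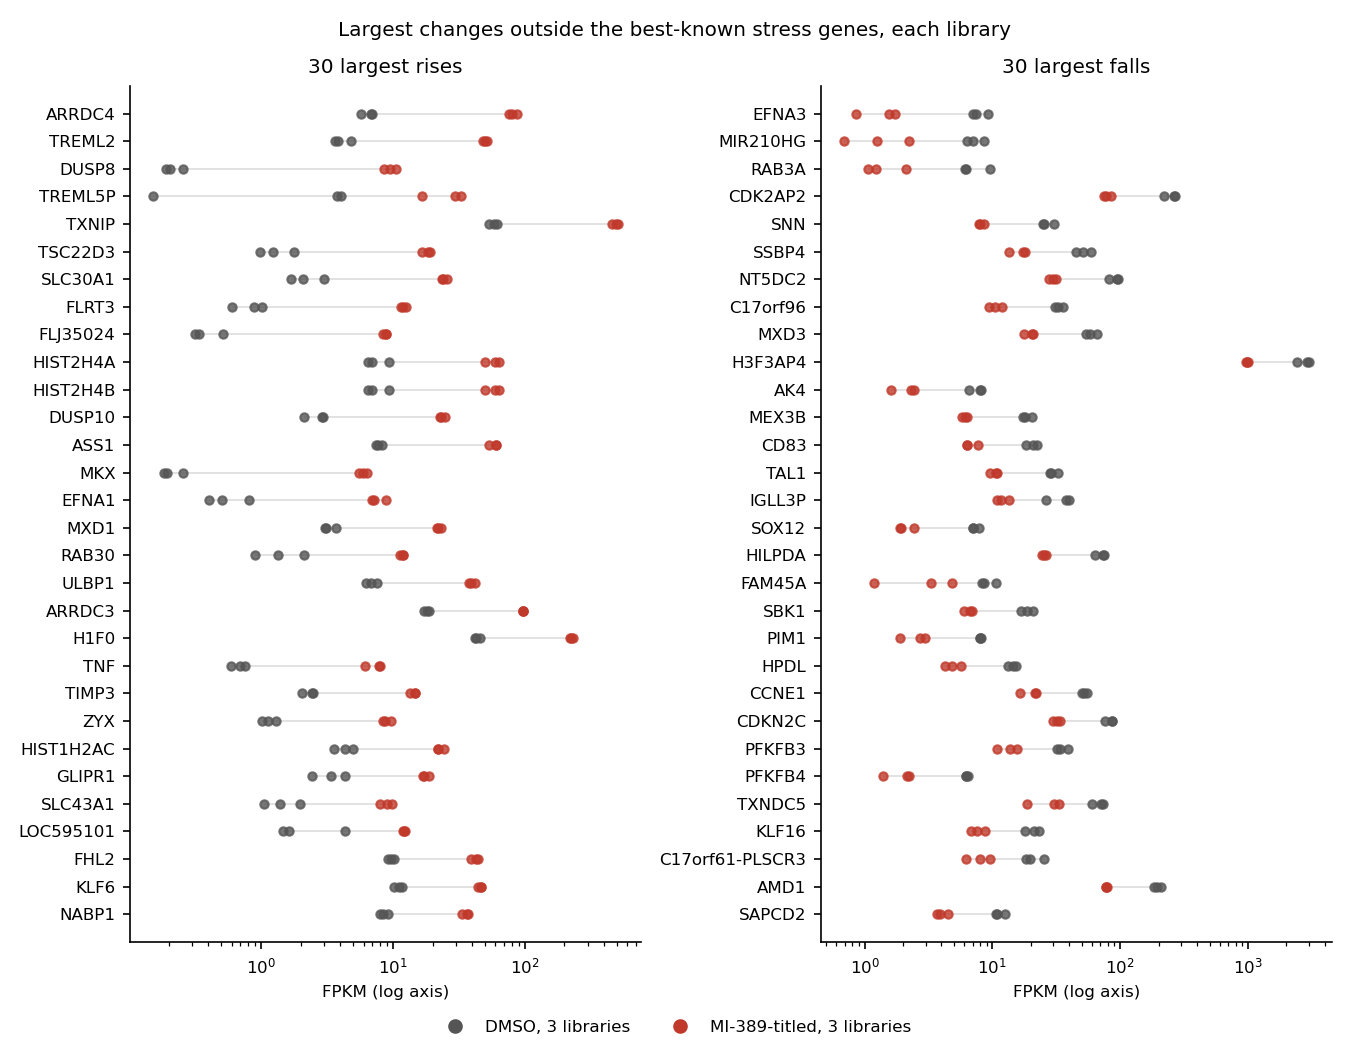
FPKM of each sample (log axis) for the 30 largest rises and 30 largest falls by log2 difference outside the best-known stress genes; grey points are the 3 DMSO samples and red points the 3 MI-389-titled samples. The groups do not overlap for any of the 60 genes, which the choice of genes required.

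The largest falls lay between 2.49-fold and 5.71-fold, and all 30 were called lower than in the sunitinib-titled samples (20.3% of all tested genes). In the sunitinib-titled samples 17 of them were called lower than in DMSO (16.9% of all). MIR210HG, the host transcript of miR-210, stood at 6.33, 7.09 and 8.61 FPKM in the DMSO samples and 1.24, 2.24 and 0.694 FPKM in the MI-389-titled samples. HILPDA, which limits fat breakdown at lipid droplets, stood at 63.2, 72.8 and 75.3 FPKM in the DMSO samples and 24.5, 26.5 and 25.4 FPKM in the MI-389-titled samples, and AK4, an adenylate kinase of mitochondria, at 8.09, 6.59 and 8.03 FPKM in the DMSO samples and 2.29, 2.43 and 1.61 FPKM in the MI-389-titled samples. PFKFB3 and PFKFB4 make fructose 2,6-bisphosphate, an activator of glycolysis, and fell 2.63-fold and 3.25-fold. The folds of the first 3 were 5.28, 2.76 and 3.59. These 5 genes and EFNA3 had adjusted p-values of 0.000204 or less (limma).

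Other large falls came from genes of varied function. CDKN2C, the p18 inhibitor of CDK4 and CDK6, stood at 76.7, 87.01 and 85.6 FPKM in the DMSO samples and 31.99, 29.9 and 33.9 FPKM in the MI-389-titled samples, a 2.60-fold fall. CD83, a surface protein of activated lymphocytes and dendritic cells, fell 3.02-fold, from 20.5 ± 2 to 6.78 ± 0.84 FPKM, and PIM1, a survival kinase downstream of STAT5, 3.20-fold, from 8.03 ± 0.084 to 2.51 ± 0.56 FPKM. SOX12, a SOX-family factor, fell 3.50-fold and MEX3B, an RNA-binding protein, 3.06-fold. SSBP4, of a family of single-strand DNA-binding cofactors, fell 3.17-fold, SNN, stannin, 3.31-fold, and NT5DC2 3.05-fold. H3F3AP4, a pseudogene of histone H3.3, fell from 2411, 2896 and 2988 FPKM to 976, 960.3 and 992 FPKM; reads of its functional parent may be counted there.

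A broad group outside the stress list was that of the numbered zinc finger genes (symbols ZNF with a number), most of which encode DNA-binding proteins with C2H2 fingers; many carry a KRAB domain, which recruits the corepressor TRIM28 and silences transposable elements. Of 425 tested members, 289 were higher and 17 lower, a median log2 difference of 0.42 against −0.002 for all genes. The samples of the 2 groups did not overlap for 302 members that were higher and 23 that were lower, and 35 rose and none fell by at least 2-fold. They made up 3.46% of tested genes and 8.25% of those called higher. Higher members outnumbered lower ones under each scaling: 276 and 37 with median centring, 277 and 40 with quantile normalization, 284 and 38 with cyclic loess, and 295 and 16 after rescaling to spike-in RNA. The spike-in rescaling could change little, since the deposited values were already level on those RNAs. Leaving out any 1 of the 6 samples gave 267 to 299 higher and 12 to 22 lower.

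Zinc finger genes are expressed at low to moderate levels, with a median of 11.7 FPKM in DMSO, so they were set beside other genes of the same level. Under 10 FPKM, 61.1% of 157 members and 22.3% of 3227 other genes were called higher. From 10 to 100 FPKM the shares were 72.7% of 260 members and 34.7% of 6473 other genes. Of the 8 members from 100 to 1000 FPKM, 4 were higher and 2 lower. Against the sunitinib-titled samples, 325 members were higher and 12 lower, where 36.0% and 20.3% of all tested genes were.

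ZNF773 had the largest difference of the family and stood at 12.03, 13.5 and 13.3 FPKM in the DMSO samples and 44.1, 41.9 and 42.3 FPKM in the MI-389-titled samples. ZNF425 stood at 4.82, 4.88 and 6.00 FPKM in the DMSO samples and 18.9, 15.6 and 16.98 FPKM in the MI-389-titled samples, and ZNF416 at 11.9, 12.2 and 12.6 FPKM in the DMSO samples and 35.5, 36.00 and 35.7 FPKM in the MI-389-titled samples. The folds were 3.31, 3.28 and 2.92, and no treated sample reached down to a DMSO sample. ZNF571 rose 2.96-fold, from 4.20 ± 0.56 to 12.4 ± 0.6 FPKM. Members of a cluster share sequence, and reads of related copies may be split between them.

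**Figure D3:**
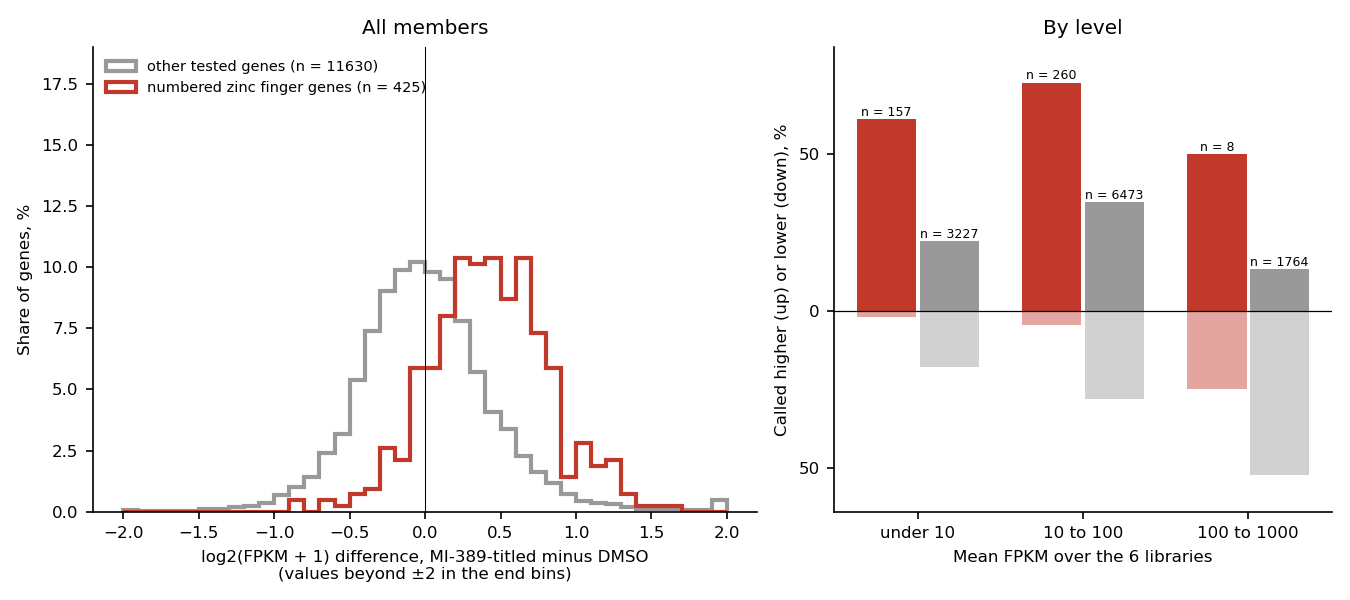
Left, distribution of the log2(FPKM + 1) difference for 425 numbered zinc finger genes (red) and other tested genes (grey). Right, share called higher (up) or lower (down, paler) by mean FPKM over the 6 samples, in the same colours, with the number of genes above each bar. The zinc finger genes are shifted to the right, with 61.1% and 72.7% called higher in the lower 2 levels.

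The TAL1 circuit split. TAL1 itself stood at 28.6, 28.2 and 32.8 FPKM in the DMSO samples and 10.8, 9.56 and 10.7 FPKM in the MI-389-titled samples, a 2.89-fold fall with a log2 difference of −1.44 ± 0.072 (SE, adjusted p = 5.32e-07, limma). Its partner LMO2 went the other way and stood at 9.05, 11.3 and 9.48 FPKM in the DMSO samples and 30.5, 28.02 and 31.3 FPKM in the MI-389-titled samples, a 3.01-fold rise. GATA3 rose 1.39-fold, from 30.5 ± 2.5 to 42.5 ± 1.2 FPKM, and RUNX1 was at 126 ± 13.3 and 137 ± 5.4 FPKM, a difference that did not pass the test (95% interval −0.04 to 0.29 on the log2 scale). ALDH1A2, a retinaldehyde dehydrogenase known as a TAL1 target in T-ALL, fell 1.63-fold, from 217 ± 23.5 to 133 ± 3.6 FPKM, and STAT5A 1.51-fold. Over the 18 tested members of the circuit 4 were higher and 8 lower, with a median of −0.13; quantile normalization and cyclic loess each gave 7 higher.

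The receptors NOTCH1 and NOTCH3 fell, while the pathway genes HES1, DTX1 and HES4 rose. NOTCH1 stood at 102, 118 and 127 FPKM in the DMSO samples and 85.03, 78.6 and 83.8 FPKM in the MI-389-titled samples, a 1.40-fold fall, and NOTCH3 fell 1.70-fold, from 4.77 ± 0.83 to 2.80 ± 0.29 FPKM. The target HES1, a repressor of the HES family, stood at 52.7, 61.2 and 56.3 FPKM in the DMSO samples and 88.5, 87.5 and 91.5 FPKM in the MI-389-titled samples, a 1.57-fold rise. DTX1, a ubiquitin ligase of the pathway, rose 1.44-fold, from 31.6 ± 3.8 to 45.3 ± 1.7 FPKM, and HES4 2.45-fold, from 2.21 ± 0.77 to 5.42 ± 1 FPKM. In all, 7 of 24 tested members were higher and 6 lower, shares close to those of all genes. Higher calls dropped to 4 without MI-389-titled replicate 1 or replicate 3, and lower calls to 3 without MI-389-titled replicate 2.

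Other transcription factors of lymphocytes were more often higher, 16 of 28 tested, with 6 lower and a median of 0.31. FOXO3, a factor held out of the nucleus by AKT, rose 2.20-fold, from 13.98 ± 0.81 to 30.8 ± 1.9 FPKM. RUNX2 rose 3.02-fold, IRF8, a factor of myeloid and B cells, 3.06-fold, and BCL6, the repressor of germinal center cells, 2.67-fold; all 3 had DMSO means under 3 FPKM. LEF1 and BCL11B, which hold T-cell identity, rose by less: LEF1 from 479.6 ± 49.3 to 609 ± 20.3 FPKM and BCL11B from 56.2 ± 4.2 to 67.2 ± 2.2 FPKM.

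Genes of T-cell receptor signalling went both ways, 10 of 24 tested being higher and 8 lower (5 lower without MI-389-titled replicate 2 or with no filter on low values). Cyclic loess gave 14 higher and 6 lower, and the median, 0.03, turned to −0.04 with median centring. PTPN22, a phosphatase that dampens the receptor, stood at 27.04, 25.01 and 29.3 FPKM in the DMSO samples and 56.3, 51.9 and 57.8 FPKM in the MI-389-titled samples, a 2.04-fold rise. TRAT1, a receptor-associated adaptor, rose 1.66-fold, from 91.4 ± 3.8 to 152 ± 2 FPKM. SH2D1A, the adaptor SAP, fell 1.59-fold, from 224 ± 11.2 to 141 ± 4.7 FPKM, and CD247, the zeta chain of the receptor complex, 1.46-fold. CD3E, another chain of the complex, was at 895 ± 119 and 768 ± 24.7 FPKM and did not pass the test.

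Cortical thymocyte genes were mostly lower, 7 of 13 tested with 3 higher and a median of −0.20. CD1A, which presents lipids, stood at 140.01, 154 and 156 FPKM in the DMSO samples and 85.4, 79.3 and 84.9 FPKM in the MI-389-titled samples, a 1.80-fold fall. CD8B, a coreceptor chain, fell 2.04-fold, from 14.9 ± 1.2 to 7.29 ± 0.72 FPKM, and CD1D 1.78-fold. DNTT, the terminal transferase of receptor gene assembly, fell 1.30-fold, from 623 ± 68.9 to 479.7 ± 14.6 FPKM, whereas RAG1, the recombinase, was 1.20-fold higher. ARPP21, a gene of immature thymocytes, rose 1.87-fold, from 50.9 ± 4.4 to 95.4 ± 3.8 FPKM.

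Homing receptors and integrins showed a like pattern, with 9 of 14 tested lower and 4 higher. SELPLG, the selectin ligand PSGL-1, stood at 44.3, 54.1 and 54.9 FPKM in the DMSO samples and 23.3, 20.8 and 21.8 FPKM in the MI-389-titled samples, a 2.33-fold fall. CCR9, the receptor for the thymic and gut chemokine CCL25, fell 1.66-fold, from 91.01 ± 9.6 to 54.8 ± 2.3 FPKM. CXCR4, the receptor for CXCL12, fell 1.39-fold, from 484 ± 49.6 to 348 ± 7.2 FPKM. The integrin chains ITGA6 and ITGA5 rose from 7.27 ± 0.61 to 13.6 ± 0.21 FPKM and from 31.1 ± 2.9 to 46.9 ± 1.8 FPKM. The medians of the cortical and homing lists kept their sign under the 4 other scalings, reaching −0.06 and −0.09 with cyclic loess.

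**Figure D4:**
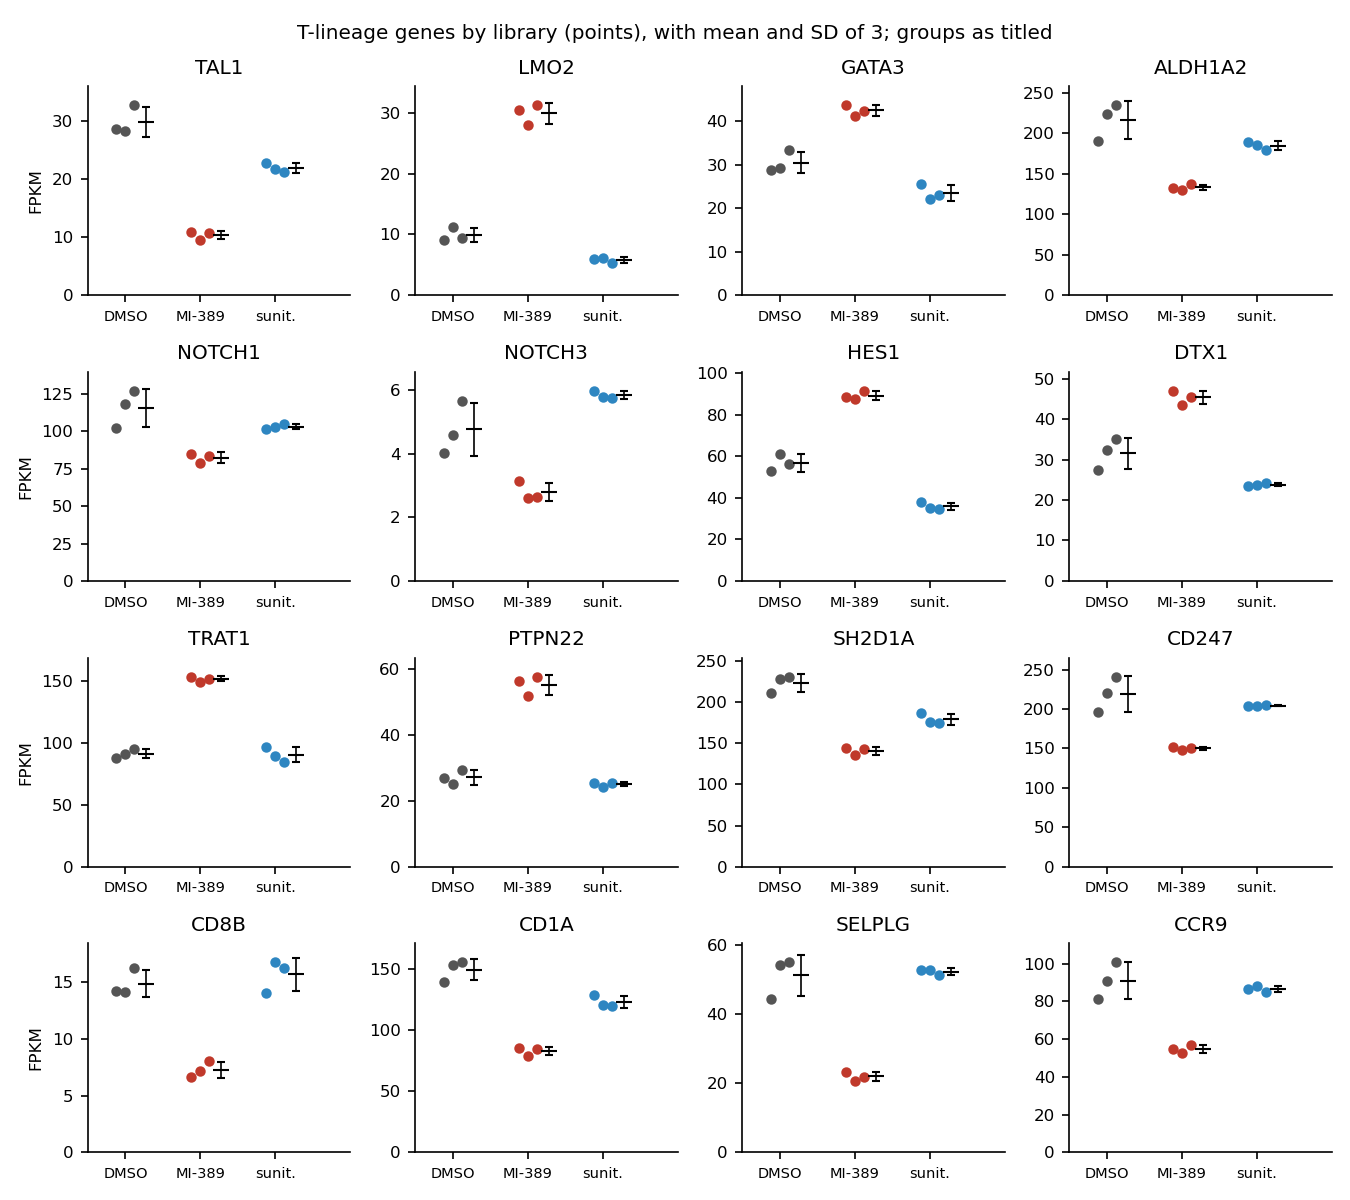
FPKM of 16 T-lineage genes in each sample (points) of the DMSO, MI-389-titled and sunitinib-titled groups, with the mean and SD of 3 samples; axes start at 0. TAL1, NOTCH1, SELPLG and CCR9 are lower and LMO2, HES1, TRAT1 and PTPN22 higher in the MI-389-titled samples than in every DMSO sample.

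Of 17 tested genes that restrain MAP kinase and G-protein signals, 13 were higher and 1 lower (2 lower with median centring, quantile normalization or cyclic loess), with a median of 0.71. DUSP10, a phosphatase of p38 and JNK, stood at 2.13, 2.91 and 2.95 FPKM in the DMSO samples and 25.04, 23.2 and 22.7 FPKM in the MI-389-titled samples, an 8.88-fold rise. DUSP8, which also acts on JNK and p38, rose from 0.192, 0.206 and 0.257 to 9.56, 8.55 and 10.5 FPKM. It passed the filter only through the MI-389-titled samples, so its higher call was built into the count. RGS16, which switches off G-protein alpha subunits, rose 4.83-fold, from 2.74 ± 0.36 to 13.2 ± 0.85 FPKM, and DUSP2, a nuclear phosphatase of activated lymphocytes, 1.40-fold. The median lay between 0.62 and 0.72 under the 4 other scalings.

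KLF and SP factors, zinc finger proteins that bind GC-rich promoters, were higher in 8 of 12 tested members and lower in 2. KLF6 stood at 11.1, 10.3 and 11.7 FPKM in the DMSO samples and 46.7, 44.4 and 46.9 FPKM in the MI-389-titled samples, a 4.17-fold rise, KLF7 rose 2.44-fold and KLF10 1.55-fold. KLF16 fell 2.70-fold, from 20.8 ± 2.6 to 7.72 ± 1 FPKM, and KLF13 1.72-fold.

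In the NF-kB list 6 of 20 tested members were higher and 4 lower, near or under the shares of all genes. Lower calls dropped to 2 without DMSO replicate 3, MI-389-titled replicate 2 or MI-389-titled replicate 3. They were also 2 with no filter and with only the 6 compared samples, and 7 with median centring. TNF, the cytokine, stood at 0.591, 0.689 and 0.764 FPKM in the DMSO samples and 8.02, 6.15 and 7.83 FPKM in the MI-389-titled samples. It too passed the filter only through the MI-389-titled samples, so its higher call was built into the count. MAP3K14, the kinase NIK of the alternative pathway, rose 1.74-fold, and TNFAIP3, the A20 brake of the pathway, 1.60-fold. Of 24 tested cytokine receptor and JAK-STAT genes 5 were higher and 6 lower, under the shares of all genes. Lower calls were 12 with median centring and 11 with quantile normalization. IFNGR2 fell 1.85-fold, from 32.97 ± 1.9 to 17.8 ± 0.85 FPKM, and IL6ST, the gp130 receptor chain, rose 1.90-fold. SOCS3, a feedback inhibitor, fell from 1.47, 1.45 and 2.14 to 0.616, 0.644 and 0.909 FPKM.

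Adaptors that shorten messenger RNA life or slow growth were higher in 11 of 24 tested members and lower in 6. BTG1, which brings the CCR4-NOT deadenylase to messenger RNA, stood at 19.6, 17.3 and 18.7 FPKM in the DMSO samples and 54.5, 52.8 and 55.4 FPKM in the MI-389-titled samples, a 2.93-fold rise. ZFP36L1, which binds AU-rich elements, rose 2.93-fold, from 8.86 ± 1.3 to 25.9 ± 1.7 FPKM. DCP1A, a decapping cofactor, rose 1.52-fold and XRN1, the exonuclease that follows decapping, 1.53-fold.

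BCL2 family genes were mixed, 5 of 14 tested being higher and 4 lower (3 higher when the filter was set at 5 FPKM). BBC3, among the higher calls, had means under 1 FPKM in DMSO and in the sunitinib-titled samples. It passed the filter only through the MI-389-titled samples, so its higher call was built into the count. PMAIP1, the BH3-only protein NOXA that neutralises MCL1, stood at 52.2, 55.3 and 58.4 FPKM in the DMSO samples and 176, 161 and 167 FPKM in the MI-389-titled samples, a 3.03-fold rise. BCL2L11, the BH3-only protein BIM, stood at 16.2, 16.4 and 17.7 FPKM in the DMSO samples and 8.73, 7.84 and 8.75 FPKM in the MI-389-titled samples, a 1.99-fold fall. BMF, another gene of this kind, rose 1.55-fold, from 2.61 ± 0.28 to 4.05 ± 0.26 FPKM. The survival gene MCL1 rose 1.36-fold, from 92.9 ± 6.6 to 127 ± 2.1 FPKM, and BCL2 1.26-fold. Of death receptor and caspase genes, 9 of 18 tested were higher and 3 lower (5 lower with median centring or quantile normalization): CASP10 rose 1.76-fold, FAS 1.35-fold and the inhibitor BIRC2 1.70-fold, while CASP2 fell 1.49-fold.

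Targets of p53 moved in both directions. Of 18 tested members 5 were higher, near the share of all genes, and 7 lower (4 lower without MI-389-titled replicate 2). PLK3, a stress-responsive kinase, stood at 10.98, 10.1 and 11.8 FPKM in the DMSO samples and 44.8, 37.4 and 40.2 FPKM in the MI-389-titled samples, a 3.73-fold rise, and RRM2B, a ribonucleotide reductase subunit, rose 1.72-fold. PHLDA3, an AKT inhibitor, fell 1.85-fold, from 9.72 ± 1.3 to 5.27 ± 0.92 FPKM, and ZMAT3, an RNA-binding protein, 1.75-fold. MDM2, the ubiquitin ligase of p53, was at 44.4 ± 2.5 and 47.3 ± 1.1 FPKM and did not pass the test (95% interval −0.03 to 0.21 on the log2 scale).

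Chromatin and transcription genes leaned higher. Of 36 tested chromatin modifiers 18 were higher and 6 lower (10 lower without DMSO replicate 1 or with median centring). CBX2, a Polycomb subunit, stood at 48.6, 52.9 and 58.6 FPKM in the DMSO samples and 25.03, 21.6 and 23.3 FPKM in the MI-389-titled samples, a 2.29-fold fall. KDM4A, a histone H3K9 demethylase, rose 2.04-fold, from 28.00 ± 2.9 to 57.2 ± 2.8 FPKM, and EP300, a histone acetyltransferase, 1.92-fold. For RNA polymerase II elongation, 13 of 22 tested genes were higher and 3 lower, with 8 higher without MI-389-titled replicate 3 and 5 lower without DMSO replicate 1 or with median centring. AFF4, the scaffold of the super elongation complex, stood at 15.1, 14.4 and 16.4 FPKM in the DMSO samples and 28.3, 27.6 and 29.05 FPKM in the MI-389-titled samples, a 1.85-fold rise. CCNT1, the cyclin of the elongation kinase P-TEFb, rose 1.71-fold and its partner CDK9 1.24-fold.

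Replication-dependent histone genes, whose messages normally end without a polyA tail, were higher in 20 of 54 tested members and lower in 1, in a library made from polyA RNA. HIST1H2AC stood at 4.96, 3.57 and 4.35 FPKM in the DMSO samples and 22.03, 22.04 and 24.6 FPKM in the MI-389-titled samples, a 5.33-fold rise. HIST1H1C, a linker histone, rose 3.30-fold, from 9.12 ± 0.23 to 30.1 ± 0.9 FPKM. HIST2H4A and HIST2H4B hold the same values in the table, 9.32, 6.43 and 6.96 FPKM in DMSO and 50.3, 59.2 and 64.2 FPKM in the MI-389-titled samples. They are 1 measurement of 2 identical genes but entered these counts and the 30 largest rises as 2 members. Higher calls fell to 13 with no filter and 12 with a mean of at least 5 FPKM. Lower calls were 4 without DMSO replicate 1, 3 with short non-coding rows omitted, and 2 without DMSO replicate 2, without MI-389-titled replicate 3, with the replicate block and under median centring, quantile normalization and cyclic loess.

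In the E2F and RB family 3 of 13 tested members were higher and 3 lower, under the shares of all genes. Lower calls were 7 with median centring or quantile normalization, 6 with cyclic loess and 5 without DMSO replicate 1, and higher calls were 1 without DMSO replicate 1, without MI-389-titled replicate 3 and with no filter. E2F1, the G1/S factor, fell 1.34-fold, and its dimer partner TFDP1 fell 1.46-fold, from 283 ± 23.8 to 194 ± 3.2 FPKM. RBL1, a relative of the RB protein, was 1.21-fold higher and the E2F1 relative E2F2 1.18-fold, the latter not called without DMSO replicate 1, MI-389-titled replicate 1 or MI-389-titled replicate 3. In homologous recombination and Fanconi repair 7 of 30 tested members were higher and 7 lower, under the shares of all genes. Lower calls were 14 with median centring or quantile normalization and 13 with cyclic loess. BARD1, the partner of BRCA1, rose 1.54-fold and FANCL, the ubiquitin ligase of the Fanconi pathway, fell 1.59-fold.

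Genes of nucleotide synthesis were called in a single direction. Of 22 tested purine and pyrimidine enzymes none was higher and 17 were lower, with a median of −0.33. The list's median level lay at 100 to 1000 FPKM. At that level 52.2% of tested genes were lower and 13.3% higher, with a median of −0.20. With quantile normalization 1 enzyme was higher and 16 lower, and with cyclic loess 2 were higher and 15 lower. PAICS, a bifunctional enzyme of purine assembly, stood at 519.8, 597 and 635 FPKM in the DMSO samples and 345, 338 and 354 FPKM in the MI-389-titled samples, a 1.69-fold fall. IMPDH1, which commits IMP to guanine nucleotides, stood at 69.8, 86.6 and 85.5 FPKM in the DMSO samples and 42.4, 40.5 and 41.5 FPKM in the MI-389-titled samples, a 1.95-fold fall. PRPS2 and PRPS1, which make the ribose donor PRPP, fell 1.67-fold and 1.55-fold, and CAD, which starts pyrimidine synthesis, 1.30-fold. In polyamine synthesis, with a median level in the same range, 3 of 10 tested members were higher and 5 lower. AMD1, the decarboxylase that supplies aminopropyl groups, stood at 183, 193 and 208 FPKM in the DMSO samples and 79.4, 77.2 and 77.6 FPKM in the MI-389-titled samples, a 2.49-fold fall, while SMOX, which oxidises spermine, rose 1.87-fold and AZIN1, an inhibitor of antizyme, 1.63-fold.

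Of 31 sterol and fatty acid genes 5 were higher and 12 lower, but the median changed sign under quantile normalization and cyclic loess, which called 8 and 12 higher. Higher calls dropped to 3 with no filter and without DMSO replicate 1, DMSO replicate 2, MI-389-titled replicate 1 or MI-389-titled replicate 3. SQLE, squalene epoxidase, fell 1.80-fold, from 95.6 ± 6.8 to 52.96 ± 1.6 FPKM, and FASN, fatty acid synthase, 1.57-fold.

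Subunits of cytosolic folding machines were mostly lower. Of 14 tested subunits of the CCT chaperonin and prefoldin, which fold actin and tubulin, none was higher and 13 were lower. Their median level lay at 100 to 1000 FPKM, where 52.2% of tested genes were lower and 13.3% higher. Quantile normalization gave 1 higher and 12 lower, and cyclic loess 1 higher and 10 lower. TCP1, a CCT subunit, stood at 600.00, 688 and 689 FPKM in the DMSO samples and 451, 454 and 457 FPKM in the MI-389-titled samples, a 1.45-fold fall, and the prefoldin subunit PFDN6 fell 1.49-fold. Tubulin and actin genes, whose products these machines fold, were lower in 16 of 24 tested members and higher in 5. Their median level also lay at 100 to 1000 FPKM. Quantile normalization and cyclic loess gave 9 higher. TUBB, a beta-tubulin, stood at 2731, 3626 and 3598 FPKM in the DMSO samples and 1479.8, 1395 and 1484 FPKM in the MI-389-titled samples, a 2.28-fold fall, and TUBB4B fell 2.35-fold, TUBA1B 1.79-fold and TUBB3 2.37-fold. Tubulin genes are close copies and may share reads. TPM4, a tropomyosin, rose 2.14-fold, from 296 ± 36.8 to 632 ± 18.9 FPKM, and ACTB, beta-actin, was at 3161 ± 467 and 3293 ± 123 FPKM and did not pass the test.

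Cereblon works in a cullin-RING ligase, a family built on cullin scaffolds that must be modified with NEDD8 to act. Of 29 tested ubiquitin and cullin ligase genes 2 were higher and 13 lower. The list's median level was near 100 FPKM. Of all tested genes, 27.2% were lower at 10 to 100 FPKM and 52.2% at 100 to 1000 FPKM. Quantile normalization gave 7 higher and 14 lower, and cyclic loess 10 higher and 14 lower. CRBN, which encodes cereblon, was 1 of the 2 higher members and rose 1.41-fold, from 38.1 ± 1.3 to 53.6 ± 3.7 FPKM. CUL3, the cullin of BTB adaptors, stood at 41.03, 42.01 and 44.9 FPKM in the DMSO samples and 21.1, 20.7 and 21.3 FPKM in the MI-389-titled samples, a 2.03-fold fall. CUL1, the cullin of F-box ligases, fell 1.68-fold, from 84.7 ± 8.4 to 50.5 ± 1.8 FPKM, and NAE1, a subunit of the enzyme that starts cullin neddylation, 1.65-fold. UBB, a polyubiquitin gene, fell 1.46-fold.

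The translation apparatus split between factors. EIF1, which selects the start codon, stood at 665, 757 and 746 FPKM in the DMSO samples and 1679, 1639.9 and 1649.5 FPKM in the MI-389-titled samples, a 2.29-fold rise, and EIF2S2, the beta subunit of eIF2, at 259.8, 279 and 293 FPKM in the DMSO samples and 581, 564 and 594 FPKM in the MI-389-titled samples, a 2.09-fold rise. EIF5, which triggers GTP hydrolysis on eIF2, rose 1.51-fold. EIF4E, the cap-binding protein, fell 1.26-fold, from 118 ± 6.9 to 93.9 ± 1.7 FPKM, and EEF1A1, the elongation factor that delivers tRNA, 1.53-fold. Of 43 tested initiation and elongation factors 5 were higher and 17 lower. The list's median level lay at 100 to 1000 FPKM, where 13.3% of tested genes were higher and 52.2% lower. With deposited values lower calls were no more common than at that level. The count also depended on the scaling: quantile normalization gave 25 higher and 13 lower, and cyclic loess 28 and 9. Lower calls were 27 without DMSO replicate 1, 11 without DMSO replicate 2 and 11 without MI-389-titled replicate 2.

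In termination and ribosome rescue, where GSPT1 acts, 5 of 21 tested members were higher (8 with cyclic loess) and 7 lower, near the shares of all genes. ABCE1, the ATPase that splits the ribosome after termination, stood at 192, 206 and 221 FPKM in the DMSO samples and 107, 98.1 and 107 FPKM in the MI-389-titled samples, a 1.99-fold fall. TRMT112, a subunit of the methyltransferase that modifies the termination factor, fell 1.61-fold. LTN1, the ubiquitin ligase of stalled ribosomes, rose 1.79-fold, from 15.3 ± 1.1 to 27.4 ± 0.69 FPKM, whereas EIF4E2, which blocks initiation on faulty messages, fell 1.44-fold. Among factors of nonsense-mediated decay 7 of 17 tested members were higher and 4 lower (7 lower without DMSO replicate 1). UPF3B rose 1.52-fold and CASC3, of the exon junction complex, 1.45-fold, while RBM8A, also of the exon junction complex, fell 1.31-fold, from 109.6 ± 7.5 to 83.4 ± 3.3 FPKM.

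Of 21 tested SR proteins and related splicing genes 5 were higher and 8 lower. The list's median level lay at 100 to 1000 FPKM, where 13.3% of tested genes were higher and 52.2% lower. With deposited values lower calls were no more common than at that level. Quantile normalization gave 11 higher and 6 lower and cyclic loess 12 higher and 6 lower. SRSF1, an SR protein, stood at 337, 377 and 402 FPKM in the DMSO samples and 175, 166 and 172 FPKM in the MI-389-titled samples, a 2.18-fold fall. The list of small nucleolar RNA hosts had 10 of 18 higher and 5 lower (12 higher and 5 lower with cyclic loess). One of the lower members, MIR17HG, is a microRNA host, the precursor of the miR-17-92 cluster, and not a small nucleolar RNA host. DANCR, a small nucleolar RNA host, fell against the direction of the list. DANCR stood at 347, 405 and 425 FPKM in the DMSO samples and 158, 146 and 172 FPKM in the MI-389-titled samples, and MIR17HG fell 2.59-fold. SNHG15 stood at 189.9, 242 and 236 FPKM in the DMSO samples and 424, 399 and 415 FPKM in the MI-389-titled samples, a 1.86-fold rise, and SNHG1 rose 1.71-fold, from 514 ± 51.6 to 879.8 ± 29.5 FPKM. The RNA polymerase III subunits POLR3C and POLR3F rose 1.92-fold, from 41.1 ± 3.1 to 78.9 ± 4.1 FPKM, and 1.84-fold, from 31.3 ± 1.1 to 57.6 ± 0.58 FPKM. Their list had 6 of 21 tested members higher and 7 lower, near the shares of all genes. Lower calls were 11 without DMSO replicate 1 or with quantile normalization. In ribosome biogenesis 14 of 47 tested members were higher and 14 lower, near the shares of all genes. Quantile normalization or cyclic loess gave 23 higher. This list's median level also lay at 100 to 1000 FPKM. UBTF, the factor that opens ribosomal RNA genes, fell 1.64-fold, from 131 ± 15.1 to 79.6 ± 1.4 FPKM, and RRN3, which brings RNA polymerase I to them, rose 1.47-fold.

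Mitochondrial ribosomal protein genes were lower in 36 of 76 tested members and higher in 10. The list's median level lay at 100 to 1000 FPKM, where 52.2% of tested genes were lower and 13.3% higher. With deposited values the list was therefore near the shares of its level. Quantile normalization gave 35 lower and 22 higher, and cyclic loess 30 lower and 26 higher. MRPL34 fell 1.87-fold, from 143 ± 11.2 to 76.5 ± 0.34 FPKM, and MRPL51 1.73-fold, from 718 ± 81.6 to 416 ± 4.3 FPKM. Of 32 tested mitochondrial import and protease genes, with a median level in the same range, 7 were higher and 12 lower. Median centring gave 6 higher and 19 lower, quantile normalization 11 and 12, and cyclic loess 13 and 11. GRPEL2, a nucleotide exchange factor of the mitochondrial HSP70, stood at 6.94, 6.83 and 8.78 FPKM in the DMSO samples and 21.1, 20.3 and 20.9 FPKM in the MI-389-titled samples, a 2.77-fold rise, and CLPX, the unfoldase of a matrix protease, rose 1.51-fold.

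Interferon-stimulated genes were lower in 12 of 28 tested members and higher in 4, with a median of −0.16. ISG15, a ubiquitin-like modifier, stood at 84.2, 76.1 and 105 FPKM in the DMSO samples and 46.5, 46.9 and 46.4 FPKM in the MI-389-titled samples, a 1.90-fold fall. IFITM2, which hinders viral entry, fell 1.80-fold, from 135 ± 17.5 to 74.8 ± 6.1 FPKM, BST2, tetherin, 1.77-fold, and IFIT1 2.10-fold. Of lysosome and autophagy genes 11 of 29 were higher and 7 lower, with 7 higher without MI-389-titled replicate 1 and 11 lower without DMSO replicate 1 or with median centring. GABARAPL1, an ATG8 protein of the autophagosome, rose 1.71-fold, from 14.7 ± 1.9 to 25.2 ± 0.94 FPKM, and the cargo receptors OPTN and NBR1 1.51-fold and 1.46-fold.

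Clock genes went both ways, near the shares of all genes, 28.5% higher and 28.3% lower. Of 15 tested, 4 were higher and 4 lower (7 higher without MI-389-titled replicate 2). PER1, a repressor of the clock, rose 1.84-fold, from 12.2 ± 1.4 to 22.4 ± 0.52 FPKM. BHLHE40, another repressor of the clock, fell 2.04-fold, from 14.9 ± 2.4 to 7.28 ± 1.2 FPKM, and the output factors TEF and DBP 1.99-fold and 1.68-fold. Of 184 tested LINC and antisense transcripts 34 were higher and 31 lower, under the shares of all genes in both directions; without strand, reads of an antisense transcript and its partner cannot be told apart.

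**Figure D5:**
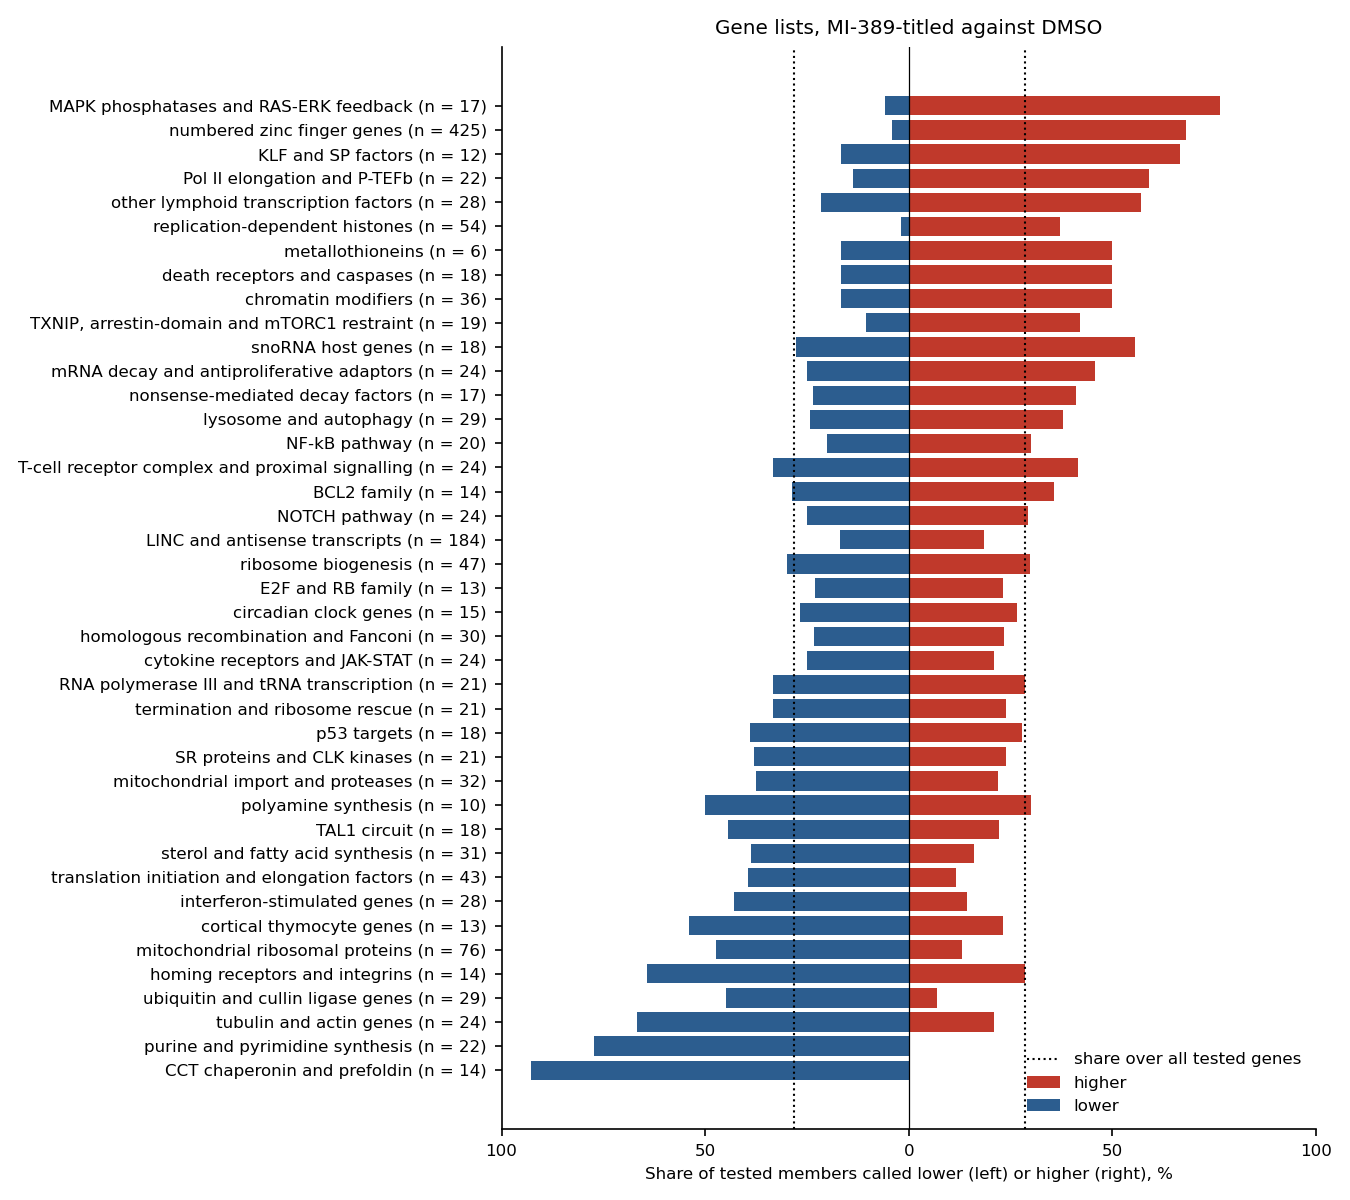
Share of tested members called higher (right, red) or lower (left, blue) in 41 gene lists, with the number tested; dotted lines mark the shares over all tested genes, 28.5% higher and 28.3% lower. MAP kinase phosphatases and zinc finger genes lead the higher side, and CCT and prefoldin and the purine and pyrimidine enzymes the lower side. The latter lists had median levels at 100 to 1000 FPKM, where 52.2% of tested genes were lower.

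Promoters of the genes that rose at least 2-fold were also read for 7 motifs that known factors bind, in the 250 bases before the start (193 of 294 genes matched by symbol). TGATGNAA, a motif of ATF4 with its partners, lay in 5.70% of these promoters, in 1.34% of those of tested genes and in 3.19% of all 27305 in the table. It lay in 0 of 22 matched genes among the 30 largest rises, which leave out stress genes. At a share of 1.34%, 22 promoters are too few to tell 0 from that share. The share among 2-fold rises without stress genes was not computed. TGACGTCA, the palindrome bound by CREB and ATF factors, lay in 6.74% of the genes that rose at least 2-fold, in 2.98% of tested genes, in 1 of the 22 and in none of 92 matched genes that fell at least 2-fold. Shares among the 2-fold rises were lower than among tested genes for CACGTG (6.22% against 9.42%), for ACGTG, the core letters of the HIF site (18.1% against 24.2%), and for TGANTCA, the AP-1 letters (3.11% against 3.59%). TGCACNC or TGCGCNC, letters of the metal response element, lay in 34.2% against 33.8%, and the pair of CACGNG motifs in 1.04% against 0.11%, which is 2 of 193 promoters. Both strands were searched, longer motifs can hold shorter ones (CACGTG holds ACGTG), stress genes were included except in the 30 largest rises, and these shares are descriptions of letters without a test.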

How the data were processed

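PolyA RNA of MOLT4 cells was made into libraries with a SMARTer v4 low-input kit, with ERCC spike-in RNA added by cell number, per the labels' protocols. Per the submitters' processing notes, the tools were HISAT and Cufflinks 2.0.0 and the build was hg19; annotation and scaling between libraries were not given in the sources used here. FPKM values deposited by the authors fill 23713 rows, 92 of them spike-in RNAs, with undetected rows near 0.1 FPKM in place of 0. Depth is unknown, and FPKM are not counts, so no count model was used.

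Testing covered 12301 genes whose mean over 9 samples reached 1 FPKM. It used limma 3.58.1 (R 4.3.3) on log2(FPKM + 1) values (3 groups, variance trend, two-sided, Benjamini-Hochberg over all 12301). Folds are ratios of mean FPKM; log2 differences, and the 2-fold setting, use the log2(FPKM + 1) scale, on which low genes change by less. The model was tested on simulated data. The gene lists and the members described were chosen with earlier results of these data known. Named genes came from a rule: the 30 genes that rose most and the 30 that fell most, called, with 5 FPKM or more in the higher group and no overlap between samples, outside stress genes and 246 short non-coding rows, up to 4 called members with the largest difference per list, and the first 3 members of each list. The text names a selection of these, and some are not reported here. The list members CCR7, KLF2 and MT1E were below the filter. Promoter letters came from a RefSeq table on GRCh38.p14. Alternatives were pseudocounts of 0.1 and 5, filters of none and 5 FPKM, median centring, quantile normalization, cyclic loess, rescaling to 16 spike-in RNAs, the 6 samples alone, a replicate block, other variance settings, a 2-fold threshold, omission of short non-coding rows, and each sample left out in turn.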

Additional observations from a re-analysis of the deposited data

How the results depend on the processing

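The counts of called genes, 3502 higher and 3477 lower, stayed within 1.5 times of these values under 19 of the 20 alternatives. The exception asks for more by construction: with a fold change of at least 2 required, 294 genes were higher and 129 lower. Across the fits that left out 1 sample, higher calls ranged from 2921 to 3964 and lower calls from 2855 to 4085. Of 186 genes given with values, 182 were called; 79 of these passed the 2-fold threshold as well, and 20 were below the filter of 5 FPKM and not tested under it. Under the 19 alternatives other than the 2-fold threshold, 179 of the 182 kept their direction and call wherever they were tested. The exceptions were E2F2, not called with no filter, with cyclic loess, or without DMSO replicate 1, MI-389-titled replicate 1 or MI-389-titled replicate 3 (adjusted p of 0.053 to 0.073, limma), MT1H, not called with no filter (adjusted p = 0.059, limma), and MT2A, whose difference turned to 0.052 with quantile normalization and 0.12 with cyclic loess and which was not called without DMSO replicate 2 or MI-389-titled replicate 2. Of the genes not called, CD3E turned to 0.038 and 0.12 under those 2 settings, the latter with an adjusted p of 0.0044 (limma), and ACTB turned to −0.0090 with median centring and −0.058 without DMSO replicate 1, reaching 0.15 without DMSO replicate 2; the cause was not tested. Of 82 list counts, 21 moved by over 1.5 times with quantile normalization, 19 with cyclic loess and 13 with median centring.

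Replicate numbers did not pair the samples: deviations from the group means of same-numbered samples correlated at 0.024, −0.030 and 0.035. A fit with the replicate block gave 3449 genes higher and 3367 lower. Low values limit the depth: rows near 0.1 FPKM rest on few fragments or none, and the unknown number of fragments allows no counting interval.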
